A study of Urosaurus graciosus
Urosaurus ornatus and Urosaurus graciosus and Urosaurus ornatus with 18 samples.

Results

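The genes described here build cholesterol, fatty acids and triglycerides, and they were taken from the raw count table of lizard liver by symbol alone, from a list of 34. The table held 28 of them among its 22773 genes, and 27 had enough counts to be tested, among 15856 genes tested in all. FDFT1, SCAP, THRSP, FADS1, FADS2 and LPIN2 were not matched by symbol and are not analysed here. MVK, mevalonate kinase, was counted but not tested: it had 2 counts in each of 5 animals (X, S, E, L and N) and 0 in the other 13.

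Vertebrate liver makes cholesterol from acetyl-CoA. The mevalonate pathway leads to farnesyl diphosphate, squalene is formed from it, and squalene is oxidised, closed into rings and trimmed to cholesterol. Fatty acids are built from the same acetyl-CoA, lengthened and desaturated, and then joined to glycerol as triglycerides. In mammals both branches are driven by the SREBP transcription factors, SREBP2 (gene SREBF2) mainly for sterols and SREBP1 (gene SREBF1) mainly for fatty acids, and INSIG1 holds their precursors in the endoplasmic reticulum when sterols are plentiful.

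Liver RNA came from 18 male lizards: 6 hybrids (Hy), 6 Urosaurus graciosus (Ug) and 6 Urosaurus ornatus (Uo), with 3 of each lineage kept at 36 °C and 3 others at 40 °C for 48 h. The series set out to compare 40 antioxidant genes, and its title speaks of hybrids that carry introgressed mitochondrial DNA; lipid synthesis was not its stated subject. The sources used here give neither the ages of the animals nor the generation of the hybrids. Animals are named by the letters in their labels: hybrids A, B and D at 36 °C and I, K and X at 40 °C, U. graciosus J, R and S at 36 °C and P, Q and T at 40 °C, and U. ornatus E, F and H at 36 °C and L, N and O at 40 °C.

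Libraries held 15780346 to 35002548 counts. Levels are given as CPM, counts scaled by the TMM-adjusted library total (the CPM scale of edgeR), and they compare animals for 1 gene, not different genes, since no gene lengths were used. Differences are log2 values from edgeR's quasi-likelihood fit with their standard errors (± SE), and a gene was called at a Benjamini-Hochberg adjusted p under 0.05 over all genes tested. Each edgeR p sets a difference against the spread between animals within groups, 3 in each. That spread was estimated over all 6 groups together and drawn towards that of other genes. An animal can therefore also move the p of a comparison that it is not part of. The reference genome for alignment was that of Sceloporus undulatus, which belongs to a different genus, so a difference between lineages in a gene's level and one in how well its reads matched cannot be told apart.

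The liver label was checked by 12 hepatocyte markers found in the table, of 14 listed. They summed to between 34300 and 166000 CPM in each animal. Not all 12 were high: CPS1 was at most 0.0921 CPM outside X (14.8 CPM), and TTR was 0 to 18.8 CPM. The lowest sums were 34300 in hybrid X and 40100 in U. ornatus O, both at 40 °C, against at least 66700 in the other 16 animals. X also had the highest sum of 10 stellate cell and fibroblast markers, 3250 CPM, and T, X and O had the highest sums of 11 heat shock genes, at 31600, 6860 and 6990 CPM. Of 5 adipocyte markers in the table, PLIN1, a coat protein of the fat droplet, was at 0 in every animal but E, F and H, where it reached at most 0.0947 CPM. The others, CIDEA, LPL, LIPE and GPD1, were counted in every animal. The 5 markers summed to between 594 CPM in H and 2310 CPM in O, with E second at 1400 CPM. LPL was highest in the same livers, O (1920 CPM) and E (1060 CPM). In bulk tissue, fewer cells of a type and less RNA per cell cannot be told apart.

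Few of these genes passed the test between the lineages. Averaged over both temperatures, 3 of 27 were called between hybrids and U. ornatus, all higher in hybrids: ELOVL5, SC5D and SQLE. That is 11.1% of them, against 35.2% of all genes tested (18.2% higher and 16.9% lower). Between the parents 2 of 27 were called, HSD17B7 higher and PMVK lower in U. ornatus, or 7.41% against 32.2% of all genes tested (16.1% higher and 16% lower). Between hybrids and U. graciosus edgeR called 0 of 27, against 1.82% of all genes tested (0.814% higher and 1% lower), with 4 at an unadjusted p under 0.05. DESeq2 called 1 (ELOVL6) and limma voom 0. The shares of all genes at that unadjusted p and in DESeq2 are not given here. Over all genes the alternative settings called 6 to 1064 in this comparison. None of the 27 differed from both parents in the same direction, against 1.02% of all genes tested.

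The median absolute log2 difference over the 27 genes was 0.37 between hybrids and U. ornatus and 0.33 between the parents, where over all genes tested it was 0.52 and 0.50. Between hybrids and U. graciosus it was 0.32, against 0.27 over all genes. In that last comparison 21 of 27 genes had a fitted difference above 0, with a median of 0.28 against 0.03 over all genes, although none was called. The hybrid mean lay above both parents for 13 genes (48.1%, against 32.9% of all genes), between them for 10 (37%, against 38.7%) and below both for 4 (14.8%, against 28.4%).

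**Figure D1:**
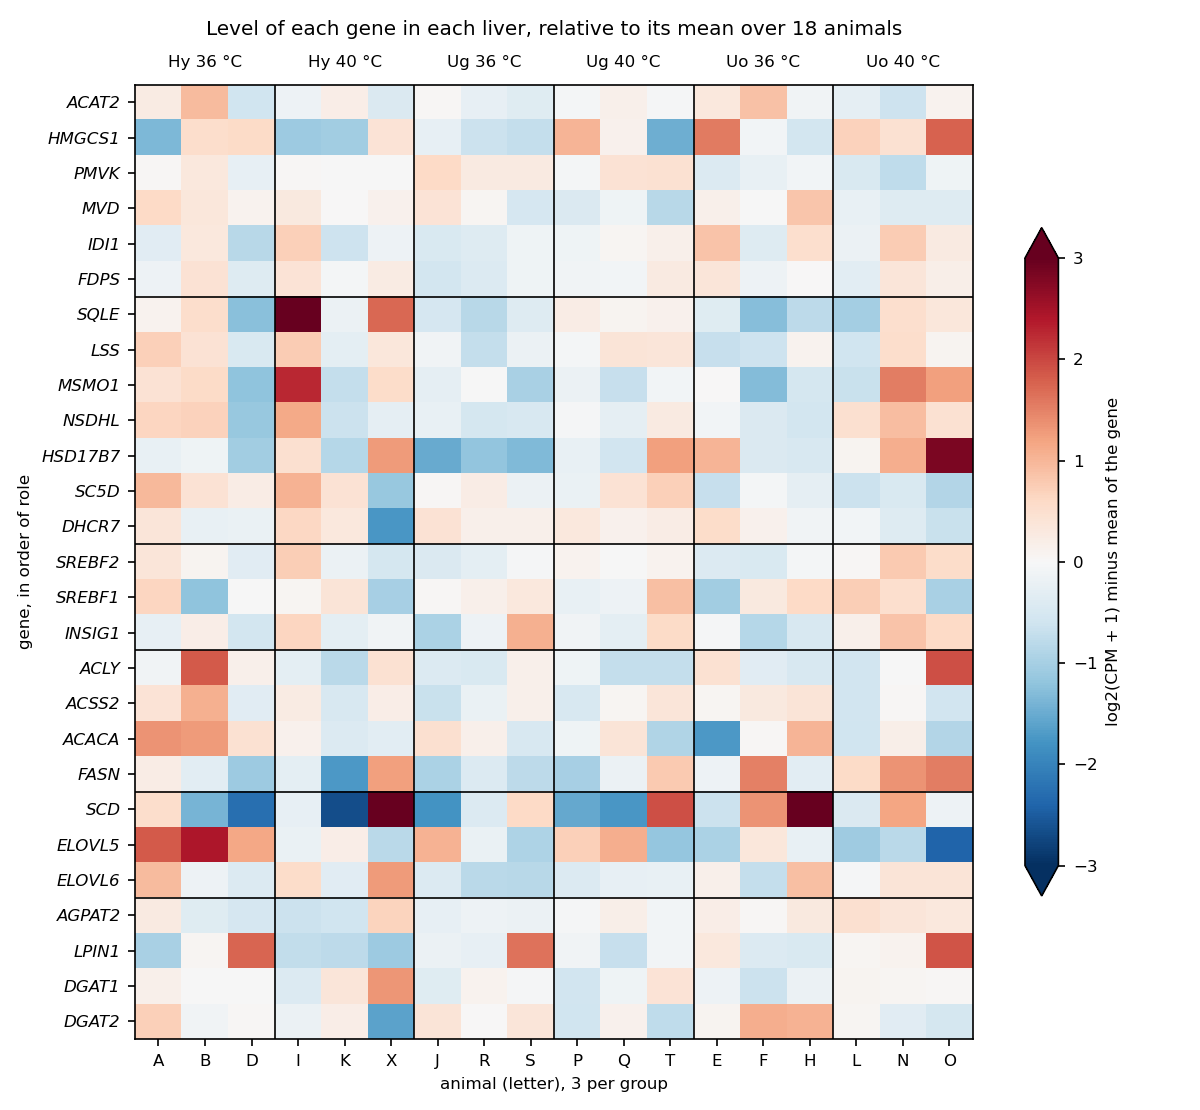
Level of each of the 27 tested genes (rows, in order of role: mevalonate pathway, squalene to cholesterol, regulators, fatty acid synthesis, desaturation and elongation, triglyceride assembly) in each of 18 livers (columns, by lineage and temperature), as log2(CPM + 1) minus the gene's mean over all animals; colours end at 3 in either direction. Single animals stand out inside their groups, such as hybrid I for SQLE and MSMO1, hybrid X for SCD and U. ornatus O for HSD17B7, more than whole groups do.

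In the mevalonate pathway 6 genes were tested, and PMVK was the only one called between lineages. PMVK, phosphomevalonate kinase, adds the next phosphate to phosphomevalonate. Its level was 74.5, 59.0 and 59.1 CPM in U. graciosus at 36 °C and 47.2, 66.0 and 67.1 CPM at 40 °C. In U. ornatus it was 36.3, 42.0 and 45.9 CPM at 36 °C and 35.4, 28.4 and 44.7 CPM at 40 °C. Hybrids had 50.5, 60.9 and 40.8 CPM at 36 °C and 50.1, 48.6 and 48.1 CPM at 40 °C. Every U. ornatus liver therefore lay below every U. graciosus liver, and the hybrids lay between, overlapping both.

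The PMVK difference between U. ornatus and U. graciosus was -0.68 ± 0.15 (95% interval -0.995 to -0.37, edgeR adjusted p = 0.00264), a level 1.61-fold lower. It was the only 1 of the 27 whose parental values did not overlap (3.7%, against 14.5% of all genes tested). Hybrids stood at -0.32 ± 0.15 against U. graciosus (edgeR adjusted p = 0.304) and at 0.37 ± 0.15 against U. ornatus (edgeR adjusted p = 0.0622), neither past the threshold. Within a single temperature the parental difference was -0.63 at 36 °C (edgeR adjusted p = 0.0523) and -0.71 at 40 °C (edgeR adjusted p = 0.083). PMVK also had the smallest spread within groups of the 27 genes, an SD of 0.23 on the log2(CPM + 1) scale.

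HMGCS1, cytosolic HMG-CoA synthase, joins acetyl-CoA to acetoacetyl-CoA early in the pathway. Its level was 157, 579 and 596 CPM in hybrids at 36 °C and 188, 192 and 529 CPM at 40 °C. U. graciosus had 336, 256 and 243 CPM at 36 °C and 805, 435 and 144 CPM at 40 °C, and U. ornatus 1180, 376 and 272 CPM at 36 °C and 641, 548 and 1360 CPM at 40 °C. The highest livers, E and O, were U. ornatus, but all lineages overlapped. The parents differed by 1.005 ± 0.48 (U. ornatus minus U. graciosus, edgeR adjusted p = 0.125), and hybrids stood at -0.97 ± 0.48 against U. ornatus (edgeR adjusted p = 0.131). That hybrid difference was called in 1 of 10 other settings, limma voom (-1.22, adjusted p = 0.0321), and in 0 of the 18 fits that left out 1 animal. It was -0.47 among 36 °C livers alone (edgeR adjusted p = 0.606) and -1.5 among 40 °C livers alone (edgeR adjusted p = 0.19).

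None of the other 4 mevalonate genes was called between lineages. ACAT2, which joins acetyl-CoA units, MVD, the decarboxylase after PMVK, IDI1, the isomerase of isopentenyl diphosphate, and FDPS, farnesyl diphosphate synthase, had edgeR adjusted p-values of at least 0.153 in the 3 lineage comparisons. ACAT2 ranged from 115 to 343 CPM over all animals, MVD from 4.53 to 16.7, IDI1 from 5.37 to 19.5 and FDPS from 14.5 to 29.5.

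Among the 7 tested enzymes from squalene to cholesterol, SQLE and SC5D were called between hybrids and U. ornatus and HSD17B7 between the parents. SQLE, squalene epoxidase, puts the oxygen on squalene and is a rate-limiting step of this part of the pathway. It had 1.86, 2.79 and 0.101 CPM in hybrids at 36 °C and 19.9, 1.35 and 7.69 CPM at 40 °C. U. graciosus had 0.864, 0.476 and 1.01 CPM at 36 °C and 2.09, 1.78 and 1.87 CPM at 40 °C, and U. ornatus 1.04, 0.0921 and 0.543 CPM at 36 °C and 0.293, 2.72 and 2.34 CPM at 40 °C. Hybrids B, I and X lay above every U. ornatus liver, while D was close to the lowest of them.

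These SQLE levels rest on few reads, from 2 counts in D and F to 476 in I. Hybrids exceeded U. ornatus by 1.97 ± 0.73 (95% interval 0.43 to 3.51, edgeR adjusted p = 0.0455), 3.92-fold. The call was kept in 4 of the 18 fits that each left out 1 animal, and without I the difference was 1.43 (edgeR adjusted p = 0.146). Against U. graciosus the hybrid difference was 1.68 ± 0.72 (edgeR adjusted p = 0.264), and the parents differed by -0.29 ± 0.72 (edgeR adjusted p = 0.79).

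SC5D, a sterol desaturase, adds a double bond late in the pathway. Hybrids had 221, 154 and 133 CPM at 36 °C and 235, 154 and 50.5 CPM at 40 °C. U. ornatus had 69.3, 108 and 93.2 CPM at 36 °C and 71.5, 81.8 and 60.9 CPM at 40 °C, and U. graciosus 116, 132 and 100 CPM at 36 °C and 98.9, 154 and 185 CPM at 40 °C. Of the 6 hybrids 5 lay above every U. ornatus liver, and the other one, X, lay below all of them.

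Hybrids exceeded U. ornatus in SC5D by 0.97 ± 0.29 (95% interval 0.36 to 1.58, edgeR adjusted p = 0.0159), 1.96-fold. Leaving out I moved the adjusted p to 0.0513, while leaving out X, T and O together gave 1.13 (edgeR adjusted p = 0.000938). The hybrid difference from U. graciosus was 0.27 ± 0.28 (edgeR adjusted p = 0.69), and the parental one was -0.70 ± 0.29 (edgeR adjusted p = 0.0726). The parental one passed in 3 of 10 other settings and in 2 of the 18 fits that left out 1 animal.

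HSD17B7, the ketosteroid reductase of sterol synthesis, reduces the keto group left when a methyl group is removed from the ring. It had 0.247, 0.556 and 0.422 CPM in U. graciosus at 36 °C and 2.03, 1.40 and 7.27 CPM at 40 °C. U. ornatus had 6.16, 1.61 and 1.55 CPM at 36 °C and 2.78, 6.51 and 24.1 CPM at 40 °C. Hybrids had 2.04, 2.22 and 0.709 CPM at 36 °C and 3.97, 0.95 and 7.59 CPM at 40 °C. At 36 °C all 3 U. ornatus livers lay above all 3 U. graciosus livers, but over both temperatures only O exceeded every U. graciosus liver.

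The parental difference in HSD17B7 was 2.28 ± 0.65 (U. ornatus minus U. graciosus, 95% interval 0.89 to 3.67, edgeR adjusted p = 0.0149), 4.85-fold. Without E the adjusted p was 0.0502 and without O it was 0.0501. Among 36 °C livers alone it was 2.92 (edgeR adjusted p = 0.0202), and among 40 °C livers alone it was 1.68 (edgeR adjusted p = 0.305). The hybrid differences, 1.13 ± 0.64 from U. graciosus (edgeR adjusted p = 0.413) and -1.15 ± 0.62 from U. ornatus (edgeR adjusted p = 0.16), were not called.

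The other 4 enzymes were called in no lineage comparison. These were LSS, lanosterol synthase, MSMO1 and NSDHL, which remove methyl groups from the ring, and DHCR7, the reductase of 7-dehydrocholesterol. LSS ranged from 6.63 to 20.3 CPM over the 18 animals, MSMO1 from 2.95 to 46.0, NSDHL from 1.72 to 12.1 and DHCR7 from 47.7 to 250. Hybrid I was the highest of its group in 6 of the 7 enzymes and K the lowest in 5, and among hybrids at 36 °C D was the lowest in 6.

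**Figure D2:**
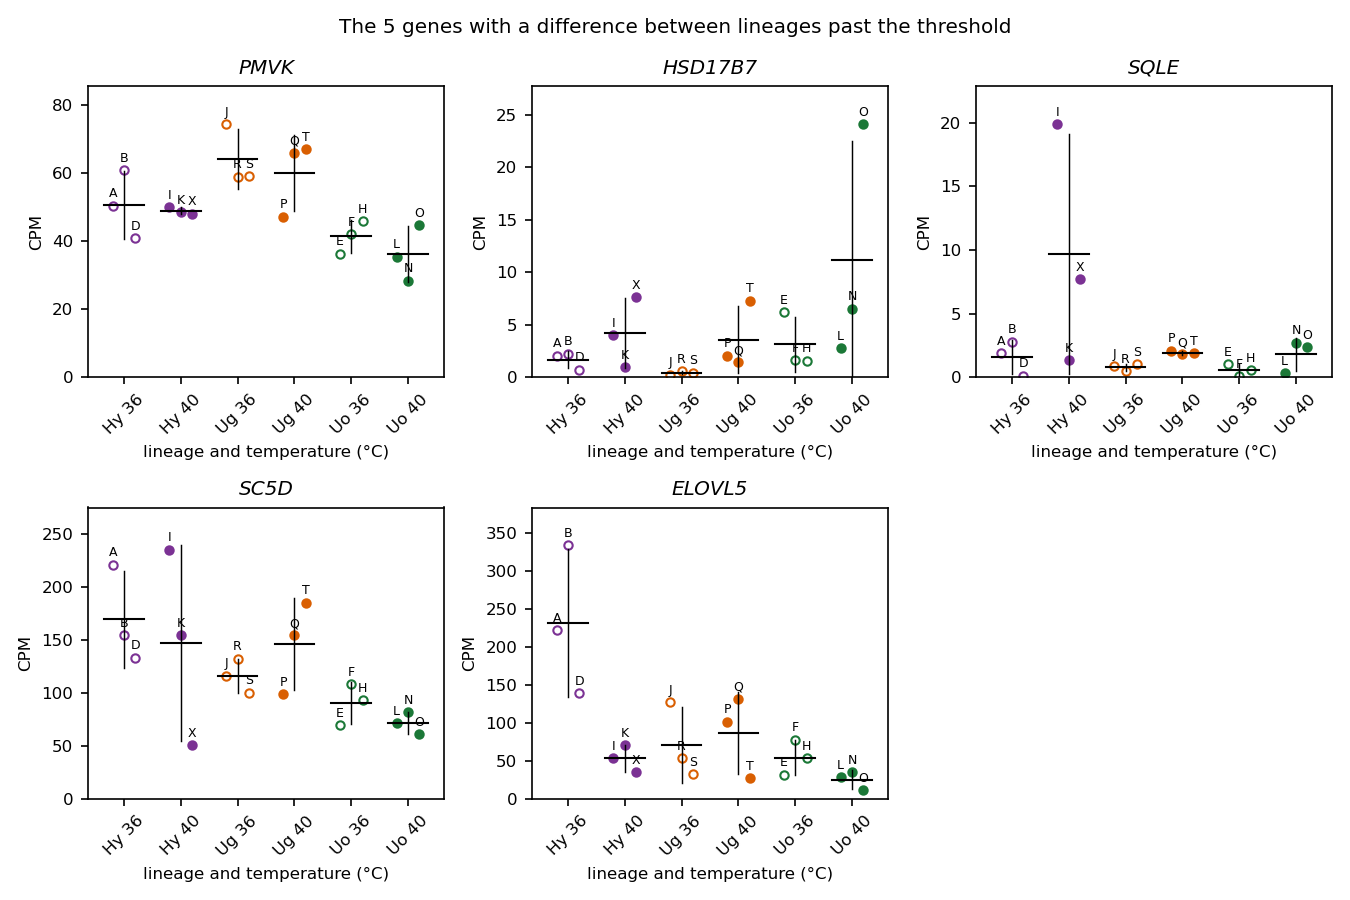
CPM (vertical axis, from 0) of the 5 genes called between lineages in each liver, by lineage and temperature; letters name animals, open points are 36 °C and filled points 40 °C, and the horizontal and vertical lines give the group mean and ± 1 SD (n = 3), cut at 0. PMVK separates the 2 parents without overlap, whereas the highest SQLE value (19.9 CPM, I) and HSD17B7 value (24.1 CPM, O) are single animals.

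None of the 3 tested regulators was called between lineages. SREBF2 was 128, 105 and 78.4 CPM in hybrids at 36 °C and 166, 87.6 and 69.2 CPM at 40 °C. It was 73.4, 81.5 and 97.6 CPM in U. graciosus at 36 °C and 107, 98.5 and 107 CPM at 40 °C, and 75.2, 72.7 and 95 CPM in U. ornatus at 36 °C and 102, 173 and 147 CPM at 40 °C. The 40 °C livers lay above the 36 °C livers in both parents, and in the hybrids they overlapped.

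SREBF1 was 81.2, 21.8 and 51.2 CPM in hybrids at 36 °C and 54.2, 67.7 and 25.2 CPM at 40 °C. It was 52.7, 57.4 and 64.2 CPM in U. graciosus at 36 °C and 44.4, 46.4 and 97.1 CPM at 40 °C, and 24.4, 64.0 and 78.0 CPM in U. ornatus at 36 °C and 87.4, 73.2 and 25.7 CPM at 40 °C. All groups overlapped, and the 4 lowest livers (B, E, X and O) came from 4 different groups. The fitted differences between lineages were at most 0.27 in size for SREBF1 (hybrids minus U. graciosus, -0.27 ± 0.38, edgeR adjusted p = 0.79).

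INSIG1 was 93.8, 130 and 76.1 CPM in hybrids at 36 °C and 176, 92.1 and 105 CPM at 40 °C. It was 57.4, 101 and 235 CPM in U. graciosus at 36 °C and 104, 91.2 and 168 CPM at 40 °C, and 109, 61.3 and 80.1 CPM in U. ornatus at 36 °C and 125, 203 and 169 CPM at 40 °C. Only in U. ornatus did all 40 °C livers exceed all 36 °C livers; whether that differs between lineages is given with the heat effects.

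Fatty acid synthesis begins with ACLY and ACSS2, which supply cytosolic acetyl-CoA, and goes on with ACACA, which makes malonyl-CoA, and FASN, which builds palmitate. None of the 4 was called between lineages. FASN was 81.0, 55.7 and 32.2 CPM in hybrids at 36 °C and 56.7, 20.5 and 164 CPM at 40 °C. It was 35.8, 52.1 and 39.7 CPM in U. graciosus at 36 °C and 34.5, 62.0 and 120 CPM at 40 °C, and 62.7, 201 and 55.8 CPM in U. ornatus at 36 °C and 104, 179 and 205 CPM at 40 °C. U. ornatus F, N and O were higher than any U. graciosus liver, and the other 3 overlapped with them.

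The parental difference in FASN, 1.25 ± 0.47 (U. ornatus minus U. graciosus, 95% interval 0.26 to 2.24), missed the threshold narrowly (edgeR adjusted p = 0.0507). It passed in 7 of 10 other settings and in 6 of the 18 fits that left out 1 animal. FASN in hybrids stood at -0.97 ± 0.46 against U. ornatus (edgeR adjusted p = 0.115). That value was -1.49 without X (edgeR adjusted p = 0.0142) and -0.55 without F, and limma voom called it (-1.39, adjusted p = 0.014). ACLY ranged from 101 to 684 CPM over the 18 animals, ACSS2 from 44.0 to 150 and ACACA from 13.8 to 122. The highest ACLY levels, 638 CPM in hybrid B and 684 CPM in U. ornatus O, were more than 2 times the next highest of any animal, 246 CPM.

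ELOVL5, which lengthens polyunsaturated fatty acids, had the lowest adjusted p of the set between hybrids and U. ornatus. Hybrids had 222, 333 and 139 CPM at 36 °C and 53.1, 70.7 and 34.5 CPM at 40 °C. U. ornatus had 31.3, 77.5 and 52.8 CPM at 36 °C and 28.6, 34.6 and 10.8 CPM at 40 °C, and U. graciosus 127, 53.3 and 31.9 CPM at 36 °C and 101, 131 and 26.9 CPM at 40 °C. The 3 hybrids at 36 °C lay above all 15 other livers.

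Over both temperatures the ELOVL5 difference between hybrids and U. ornatus was 1.60 ± 0.43 (95% interval 0.68 to 2.52, edgeR adjusted p = 0.00995), 3.03-fold. It was called in all 18 fits that left out 1 animal. Among 36 °C livers alone it was 2.10 (edgeR adjusted p = 0.0247), and among 40 °C livers alone it was 1.09 (edgeR adjusted p = 0.268). U. ornatus minus U. graciosus was -1.10 ± 0.43 (edgeR adjusted p = 0.0607), and hybrids minus U. graciosus was 0.50 ± 0.42 (edgeR adjusted p = 0.603). The parental difference passed in 3 of 10 other settings and in 2 of the 18 fits that left out 1 animal.

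ELOVL6, which lengthens palmitate, ranged from 11.7 to 54.4 CPM. Its difference between hybrids and U. graciosus was 0.98 ± 0.32, which edgeR did not call (adjusted p = 0.135) and DESeq2 did. SCD, stearoyl-CoA desaturase, turns saturated into monounsaturated fatty acids. It had 24, 5.52 and 2.58 CPM in hybrids at 36 °C and 13.6, 1.74 and 304 CPM at 40 °C. U. graciosus had 3.99, 12.0 and 25.3 CPM at 36 °C and 4.98, 4.10 and 64.4 CPM at 40 °C, and U. ornatus 10.1, 43.0 and 197 CPM at 36 °C and 11.7, 38.4 and 14.5 CPM at 40 °C. X, T and H stood far above the other livers of their groups, and no lineage difference was called (edgeR adjusted p of 0.394 to 0.833).

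The 4 tested genes of triglyceride assembly were AGPAT2, which adds the next acyl chain to lysophosphatidic acid, LPIN1, a phosphatidate phosphatase, and DGAT1 and DGAT2, which add the last acyl chain. None was called between lineages in the fit of all animals. AGPAT2 ranged from 30.5 to 77.7 CPM, DGAT1 from 7.88 to 33.8 and DGAT2 from 32.1 to 213. AGPAT2 in hybrids stood at -0.40 against U. ornatus (edgeR adjusted p = 0.148). It was called in 1 of the 18 fits that left out 1 animal, the one without X, its highest liver (-0.68, edgeR adjusted p = 0.00176). The limma voom fit also called it (-0.62, adjusted p = 0.00384). LPIN1 ranged from 36.2 to 293, with D (265 CPM), S (246 CPM) and O (293 CPM) each more than 2 times the other animals of its group. Over both temperatures LPIN1 in hybrids stood at -0.50 ± 0.46 against U. ornatus (edgeR adjusted p = 0.423). The value was -1.86 among 40 °C livers alone (edgeR adjusted p = 0.0455) and of the opposite sign, 0.84, among 36 °C livers alone (edgeR adjusted p = 0.421).

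**Figure D3:**
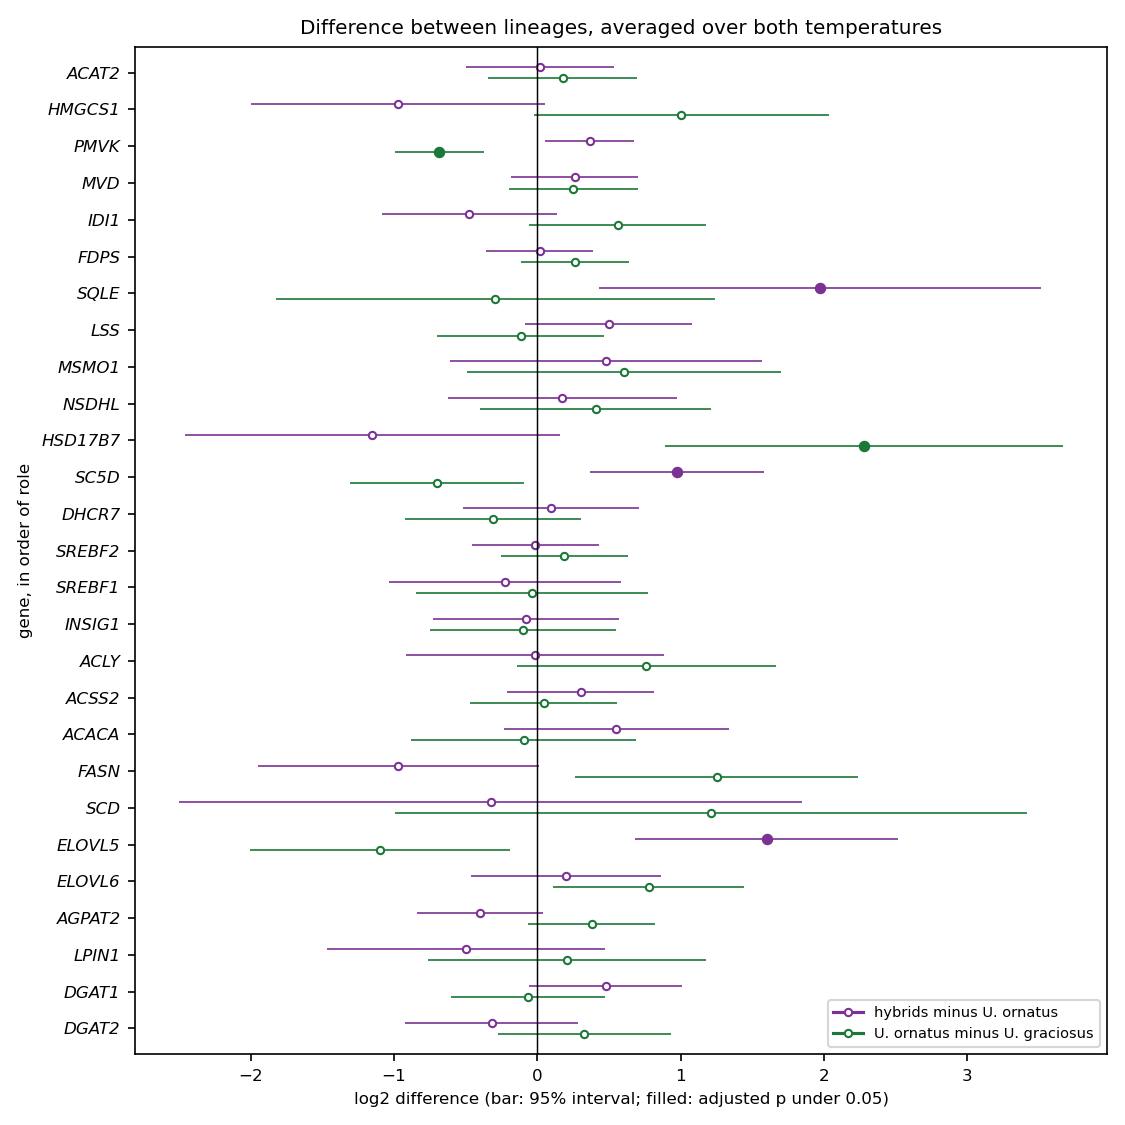
Log2 difference (horizontal axis, with 95% intervals) between hybrids and U. ornatus and between U. ornatus and U. graciosus, averaged over both temperatures, for the 27 genes in order of role; filled points passed an adjusted p of 0.05 in edgeR. ELOVL5, SC5D and SQLE are filled in the first comparison and PMVK and HSD17B7 in the second, and the SCD interval is the widest.

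Both comparisons share the U. ornatus livers, so they are not independent. Many markers of other cells, but not all, moved with the same lineages. The 10 stellate cell and fibroblast markers summed to 418 to 3250 CPM in hybrids, 424 to 931 CPM in U. graciosus and 138 to 370 CPM in U. ornatus, with none at 0, and 9 of 10 were called higher in hybrids than in U. ornatus (90%, against 18.2% of all genes). The 10 endothelial markers summed to 490 to 703 CPM in hybrids and 210 to 501 CPM in U. ornatus, and 5 were called higher in hybrids (50%, against 18.2%). Others went the other way. TEK was 18.8 to 23.0 CPM in hybrids other than X (56.9 CPM) and 23.4 to 33.1 CPM in U. ornatus. PECAM1 was 14.4 to 21.7 CPM in hybrids other than X (37.3 CPM) and 20.3 to 35.6 CPM in U. ornatus. The 6 macrophage markers summed to 259 to 438 CPM in U. graciosus and 398 to 1160 CPM in U. ornatus, and 5 were called higher in U. ornatus (83.3%, against 16.1%). Their part in the lineage differences was not tested. The number of the 27 called between parents was 6 without X, 4 without K, 4 without T and 1 without O, and the number called between hybrids and U. ornatus was 5 without X. Over all genes, the fits with 1 library left out tested 16145 to 16305 genes. They called 4389 to 6062 between the parents and 4775 to 6206 between hybrids and U. ornatus.

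After 48 h at 40 °C no gene of the set was called against 36 °C. Averaged over the 3 lineages edgeR called 0 of 27, against 0.996% of all genes tested (0.536% higher and 0.46% lower). At an unadjusted p under 0.05 there were 8 of 27 (29.6%, against 17.9% of all genes). DESeq2 called 3, HSD17B7 and SQLE higher and DGAT2 lower at 40 °C, and limma voom called 0. The share of all genes that DESeq2 called is not given here. Over all genes the alternative settings called 55 to 864 for this effect. The fitted mean heat effect was above 0 for 16 genes, with a median of 0.21 against 0.03 over all genes.

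The 3 genes nearest the threshold in edgeR were the ones that DESeq2 called. HSD17B7 had a heat effect of 2.08 ± 0.53 (40 °C minus 36 °C, edgeR adjusted p = 0.07), DGAT2 of -0.77 ± 0.23 (edgeR adjusted p = 0.118) and SQLE of 1.84 ± 0.59 (edgeR adjusted p = 0.136). The HSD17B7 effect was 1.06 (edgeR adjusted p = 0.277) without X, T and O, which were the animals with the highest HSD17B7 level in their 40 °C groups and with the highest heat shock sums. X, T and O also had the lowest DGAT2 level in their 40 °C groups. Without them the DGAT2 effect was -0.55 (edgeR adjusted p = 0.214) and that of SQLE 1.81 (edgeR adjusted p = 0.255). The part of the heat shock signal in these values was not tested.

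Below these came MVD, at -0.52 ± 0.17 (edgeR adjusted p = 0.143), ELOVL5, at -0.99 ± 0.35 (edgeR adjusted p = 0.162), ACACA, at -0.69 ± 0.30 (edgeR adjusted p = 0.25), SREBF2, at 0.38 ± 0.17 (edgeR adjusted p = 0.252), and MSMO1, at 0.95 ± 0.42 (edgeR adjusted p = 0.254). The signs were mixed within the sterol branch, with SQLE, HSD17B7 and MSMO1 above 0 and MVD below. PMVK (-0.11 ± 0.12) and SREBF1 (0.07 ± 0.31) had small fitted values, the first with a narrow and the second with a wide interval.

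By lineage, heat gave 0 called genes of 27 in hybrids, where edgeR called 0% of all genes tested, and 0 of 27 in U. graciosus, also with 0% called. U. ornatus gave 0 of 27 against 0.782% of all genes (0.385% higher and 0.397% lower). At an unadjusted p under 0.05 the numbers were 4 in hybrids (14.8%, against 7.81% of all genes), 1 in U. graciosus (3.7%, against 6.1%) and 6 in U. ornatus (22.2%, against 16.7% of all genes), and DESeq2 and limma voom called 0 in each lineage. The 6 in U. ornatus were SREBF2 (0.80 ± 0.30, edgeR adjusted p = 0.193), MVD (-0.79 ± 0.30, edgeR adjusted p = 0.199), DGAT2 (-1.07 ± 0.41, edgeR adjusted p = 0.2), INSIG1 (0.99 ± 0.44, edgeR adjusted p = 0.265), MSMO1 (1.62 ± 0.74, edgeR adjusted p = 0.283) and NSDHL (1.16 ± 0.54, edgeR adjusted p = 0.295).

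The values of the 3 livers at each temperature did not overlap for some genes in each lineage; differences in this between lineages were not tested. In U. graciosus all 40 °C livers lay above all 36 °C livers for 8 of 27 genes (29.6%, against 7.25% of all genes tested) and below for none (0%, against 7.45%). The 8 were LSS, HSD17B7, SQLE, SREBF2, ELOVL6, IDI1, AGPAT2 and FDPS, of which 5 make sterols. Some gaps between the nearest livers were small, such as 9.38 against 9.47 CPM for IDI1 and 16.0 against 16.1 CPM for ELOVL6. Of the 8, HSD17B7 had an unadjusted edgeR p of 0.00605 for heat in U. graciosus. The others had 0.123 (FDPS) to 0.465 (AGPAT2). In U. ornatus 8 of 27 genes were separated (29.6%, against 23.2% of all genes): 5 upwards (18.5%, against 12.1%), SREBF2, INSIG1, NSDHL, AGPAT2 and DGAT1, and 3 downwards (11.1%, against 11%), DGAT2, ACSS2 and MVD. In hybrids 0 were separated upwards (0%, against 5.11%) and 2 downwards (7.41%, against 5.76%), ELOVL5 and ACACA. SREBF2 and AGPAT2 were separated upwards in both parents, but the share of all genes that did so was not counted. None of the 27 was separated the same way in all 3 lineages (0%, against 0.744%). Marker sums separated too: the 12 hepatocyte markers summed to 78400 to 118000 CPM in U. ornatus at 36 °C, none at 0, and to 40100 to 68400 CPM at 40 °C, 1 at 0. Taken singly, only FGA, FGB, FGG and HPX of these markers separated. The others overlapped, such as APOB, at 17800 to 28500 CPM at 36 °C and 15300 to 24600 CPM at 40 °C. The 6 macrophage markers, none at 0, summed to 405 to 438 CPM in U. graciosus at 36 °C and to 259 to 342 CPM at 40 °C. The part of these shifts in the heat values was not tested.

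**Figure D4:**
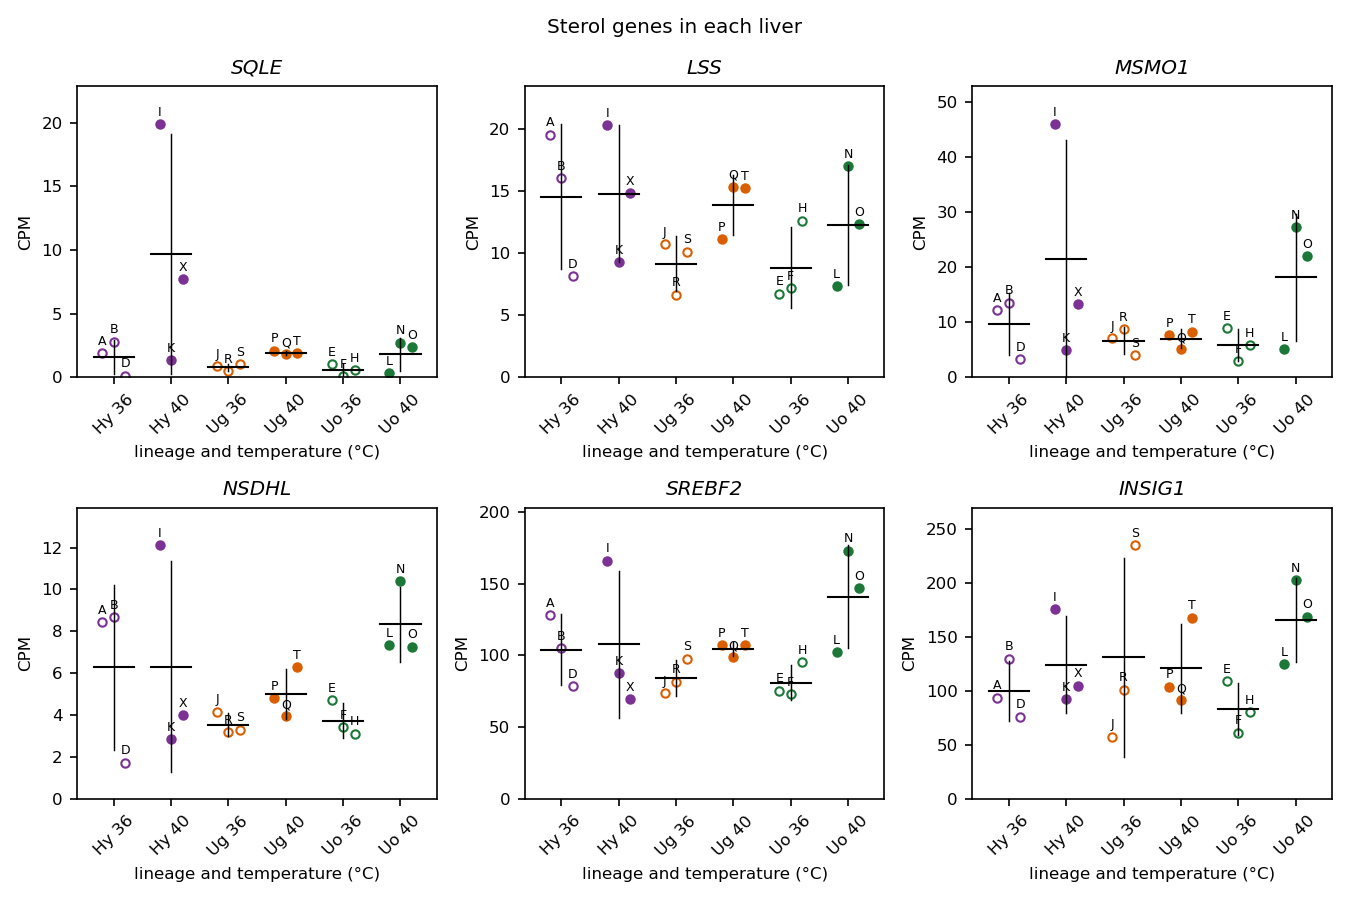
CPM (vertical axis, from 0) of 4 sterol enzymes and 2 regulators in each liver, drawn as in the plot of the 5 called genes. In U. ornatus the 40 °C livers of SREBF2, NSDHL and INSIG1 sit above the 36 °C livers, in U. graciosus those of SQLE, LSS and SREBF2 do, and among hybrids at 40 °C animal I is above K and X in all 6 genes.

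The difference in heat effect between lineages was tested directly. The heat effect in hybrids minus that in U. graciosus gave 0 called genes of 27 (0% of all genes tested), the heat effect in hybrids minus that in U. ornatus gave 0 (0% of all genes), and that in U. ornatus minus that in U. graciosus gave 0 (0.00631% of all genes). At an unadjusted p under 0.05 the numbers were 1 (3.7%, against 3.44% of all genes), 3 (11.1%, against 9.64%) and 1 (3.7%, against 7.46%), and DESeq2 and limma voom called 0 in each. For INSIG1 the lineage effects were between -0.12 and 0.99, and for SREBF2 between 0.05 and 0.80, differences that did not pass.

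The widest gaps between lineage heat effects were in the fatty acid branch. SCD had heat effects of 3.30 in hybrids, 0.83 in U. graciosus and -1.96 in U. ornatus, and the hybrid effect exceeded that of U. ornatus by 5.26 ± 2.17 (edgeR adjusted p = 0.482). That value leans on X at 304 CPM and H at 197 CPM. In U. graciosus at 40 °C, T had 64.4 CPM, against 4.98 and 4.10 CPM in P and Q. LPIN1 had -1.60 in hybrids, -0.97 in U. graciosus and 1.10 in U. ornatus, with a hybrid minus U. ornatus difference of -2.69 ± 0.93 (edgeR adjusted p = 0.402). ACLY had -1.03, -0.28 and 0.93 in the same order, with a difference of -1.95 ± 0.86 (edgeR adjusted p = 0.499). ELOVL5 had a heat effect of -2.13 ± 0.62 in hybrids, with no overlap of values (edgeR adjusted p = 0.546), and its hybrid effect minus that of U. graciosus was -2.42 ± 0.86 (edgeR adjusted p = 1).

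**Figure D5:**
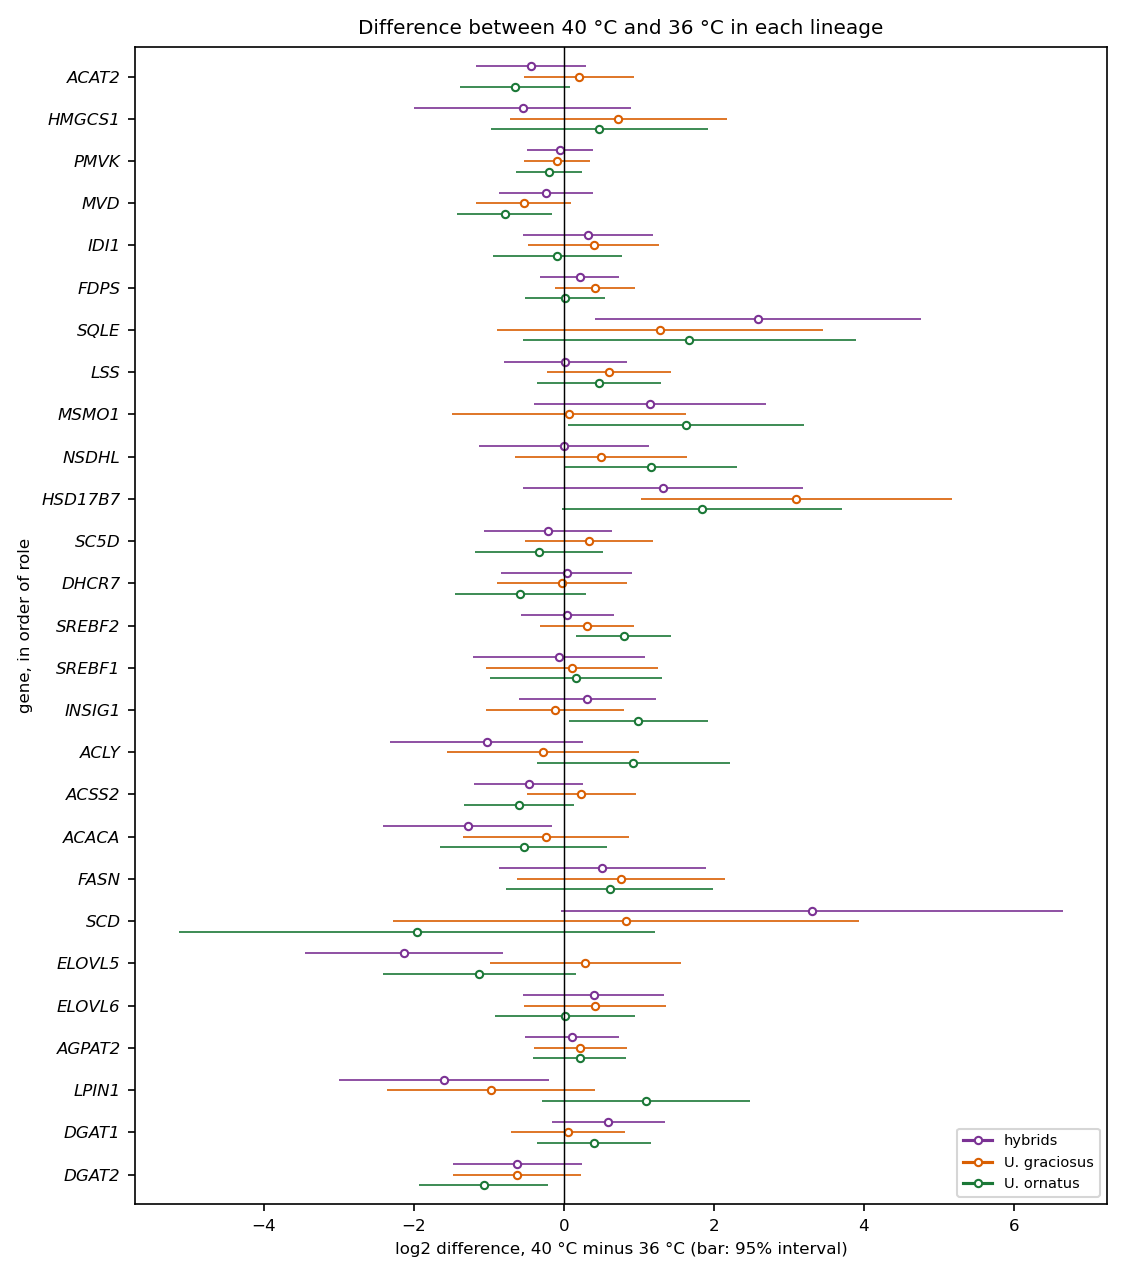
Log2 difference between 40 °C and 36 °C (horizontal axis, with 95% intervals) in each lineage for the 27 genes in order of role, 3 animals at each temperature. No value passed an adjusted p of 0.05 in edgeR; the lineages point in different directions for SCD and LPIN1, and all 3 are above 0 for SQLE and HSD17B7.

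The livers of a group varied widely in these genes. The within-group SD of log2(CPM + 1) had a median of 0.58 over the 27 genes, against 0.35 over all genes tested and 0.36 over the 13564 with a mean of at least 1 CPM. Of the 27 genes 24 lay above the all-gene median and 11 in the top 10% of all genes. SCD had the largest SD, 2.03, higher than 99.9% of genes tested, followed by MSMO1 (0.95), HMGCS1 (0.94), HSD17B7 (0.91) and FASN (0.89). PMVK (0.23), FDPS (0.29) and MVD (0.32) were the steadiest.

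Some animals stood at the edge of their group in most genes. Over the 13 sterol enzymes, hybrid I was the highest of the 3 hybrids at 40 °C in 10 and hybrid D the lowest of those at 36 °C in 11. E was the highest U. ornatus liver at 36 °C in 8, and N the highest at 40 °C in 7. Over the 11 fatty acid and triglyceride enzymes D was again the lowest hybrid at 36 °C, in 8, and K the lowest at 40 °C, in 6, after 8 of the sterol enzymes. X was the highest hybrid at 40 °C in 6, N the highest U. ornatus liver at 40 °C in 5 and the lowest in 0, and O the highest in 3 and the lowest in 6. X and O are also the livers with the lowest hepatocyte sums of all 18. Within their own groups, D (102000 CPM, against 151000 and 166000) and E (78400 CPM, against 99800 and 118000) had the lowest sums. I had the highest sum of its group (142000 CPM), and N (66700 CPM) lay between L and O. D also had the highest sum of 11 skeletal muscle markers, 174 CPM, against at most 57.8 CPM in any other animal. The part of liver composition in this spread was not tested.

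Other genes of the same pathways were taken from lists of textbook members. Of 10 tested genes of sterol synthesis and SREBP processing outside the set, 3 were called between the parents, all higher in U. ornatus (30%, against 32.2% of all genes). INSIG2, which also anchors the SREBP precursors, was one of them, with a difference of 0.95 ± 0.26 (edgeR adjusted p = 0.0114).

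Between hybrids and U. ornatus 1 of the 10 was called higher and 2 lower in hybrids (30%, against 35.2% of all genes). INSIG2 was lower (-1.10 ± 0.26, edgeR adjusted p = 0.00447), and MBTPS1, the protease that makes the first cut in SREBPs, was higher (0.46 ± 0.12, edgeR adjusted p = 0.00721). None of the 10 was called for heat, averaged over lineages (against 0.996% of all genes) or in any lineage (against at most 0.782%, in U. ornatus).

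Of 13 tested genes of cholesterol uptake, export, storage and bile acids, 2 were higher and 2 lower in U. ornatus than in U. graciosus (30.8%, against 32.2% of all genes). Between hybrids and U. ornatus 4 were higher and 2 lower in hybrids (46.2%, against 35.2% of all genes). SOAT2, which esterifies cholesterol for storage, was 51.5 to 90.9 CPM in U. ornatus, above all hybrids (8.74 to 46.4 CPM) and all U. graciosus livers (20.9 to 40.3 CPM), and hybrids stood at -1.09 ± 0.27 (edgeR adjusted p = 0.00602). NPC1L1, a transporter that takes up cholesterol in the mammalian gut and human liver, was 3.75 to 7.19 CPM in U. ornatus, at most 1.12 CPM in hybrids and at most 0.253 CPM in U. graciosus. Its hybrid minus U. ornatus value was -4.79 ± 0.74 (edgeR adjusted p = 0.000227). NR1H4, the bile acid receptor FXR, was higher in hybrids than in U. ornatus (0.63 ± 0.19, edgeR adjusted p = 0.017). None of the 13 was called between hybrids and U. graciosus (against 1.82% of all genes) or for heat (against 0.996% for the mean heat effect).

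Of 25 tested genes of fatty acid and triglyceride synthesis outside the set, 3 were higher and 2 lower in hybrids than in U. ornatus (20%, against 35.2% of all genes), and 2 were higher and 3 lower in U. ornatus than in U. graciosus (20%, against 32.2%). LPIN3, a relative of LPIN1, was lower in hybrids than in U. ornatus (-2.25 ± 0.39, edgeR adjusted p = 0.000563), and AGPAT3, an acyltransferase, was higher (0.67 ± 0.13, edgeR adjusted p = 0.00113). GPAM, the mitochondrial acyltransferase that starts triglyceride assembly, had the values 13.0, 12.5 and 10.2 CPM in U. ornatus at 40 °C, where every other liver had between 23.3 and 36.9 CPM. Averaged over lineages 2 of the 25 were called lower at 40 °C and none higher, GPAM (-0.74 ± 0.09, edgeR adjusted p = 0.00609) and AGPAT3 (-0.50 ± 0.10, edgeR adjusted p = 0.0404), or 8%, against 0.996% of all genes. With 1 animal left out, the GPAM call held in 18 of 18 fits and the AGPAT3 call in 5 of 18 (edgeR adjusted p of 0.0482 to 0.0882). MLXIPL, the carbohydrate-responsive factor ChREBP, had a mean heat effect of 0.11 (edgeR adjusted p = 0.894).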

How the data were processed

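Per the labels' protocols, directional libraries were made from liver RNA of 18 lizards, purified by TRIzol followed by RNeasy. The authors deposited 1 table of raw counts per gene; per the submitters' processing notes, Trim Galore 0.6.4, STAR, Subread and DESeq2 were used. The sources used here do not give the genome build, annotation, strand setting or the handling of multi-mapped reads, so overlapping genes and near-identical copies may share counts. Totals were 15780346 to 35002548 per library. Between 71.8% and 76.4% of the counts from 1 to 20 were even, so a count may not be 1 fragment. The table names 9041 of 22773 genes by placeholders, and these took 19.1% to 35.2% of the counts. No genome or sequence table was used, so no positions or sequences are given.

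From these counts, edgeR 4.0.16 in R 4.3.3 was run on all 18 libraries (filterByExpr on the 6 groups, TMM, robust quasi-likelihood, 1 mean per group), with Benjamini-Hochberg adjustment over the 15856 genes tested in each of 10 contrasts and a threshold of 0.05. TMM factors were 0.867 to 1.43. Lineage differences average both temperatures, and the labels name no batch. The code was tested on simulated data. Alternatives were DESeq2 1.42.0, RLE factors, no filter, a filter of 5 CPM in 3 libraries, limma 3.58.1 voom with quality weights, counts halved and rounded up, fits without X, T and O, of only the groups compared or of 1 temperature, and each library left out. The members and lists were chosen with earlier results of these data known. Every member was named. Values in every animal are given for members called in any contrast and for HMGCS1, SQLE, INSIG1, FASN, SCD, SREBF1 and SREBF2. From the other pathway lists up to 4 called genes per list and contrast were named by smallest p, plus MLXIPL and GPAM whatever their p; some genes that this rule names are not reported here. Members that share a pathway are not independent. Precision is limited by the number of animals, 3 in each group, and intervals on log2 differences were calculated back from the edgeR F statistics.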

Additional observations from a re-analysis of the deposited data

How the results depend on the processing

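Over alternatives, the members called between hybrids and U. ornatus were 3 in the edgeR fit reported, 6 in limma voom, 5 without X, T and O, 1 among 40 °C libraries alone and 2 to 5 when each library was left out. Between U. ornatus and U. graciosus they were 2 as reported, 5 in DESeq2, 5 in limma voom, 5 without X, T and O, 6 with only the groups compared, 1 at 36 °C alone, 0 at 40 °C alone and 1 to 6 when each library was left out. DESeq2 called 3 for the mean heat effect and 1 between hybrids and U. graciosus, both 0 in edgeR; the cause was not tested. The other member counts, for heat in each lineage, heat differences and values outside both parents, were 0 in every setting run. ELOVL5, hybrids against U. ornatus, was called in 9 of 10 alternatives, SC5D in 9 of 10 and SQLE in 3 of 9, with adjusted p-values of 0.0151 to 0.293 for SQLE, which a filter of 5 CPM removed. PMVK between the parents was called in 8 of 10 and HSD17B7 in 9 of 10. GPAM, U. ornatus minus U. graciosus, was -0.55 in the edgeR fit of all animals and 0.036 among 36 °C libraries alone (edgeR adjusted p = 0.903). Its heat effect in U. ornatus was -1.56 to -1.32 when each library was left out, called in 18 of 18 fits. Calls over all genes also moved over the alternatives, from 55 to 864 for the mean heat effect and 0 to 847 for heat in U. ornatus. They ran from 6 to 1064 between hybrids and U. graciosus, 1518 to 7145 between hybrids and U. ornatus and 1321 to 6494 between the parents. With each library left out they were 4775 to 6206 between hybrids and U. ornatus and 4389 to 6062 between the parents. The share of all genes called in each single setting is not given here. Fits of only the groups compared were not run for the mean heat effect, which uses all 6 groups. No paired analysis was possible because each animal was kept at 1 temperature and the letters mark different animals in each group. MVK, at 0 or 2 counts in every animal, could not be tested at this depth, and SQLE rests on 2 to 476 counts.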

Other observations

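Genes that burn fatty acids were measured in the same livers. Of 21 tested genes of fatty acid oxidation and ketogenesis, 4 were higher and 1 lower in hybrids than in U. ornatus (23.8%, against 35.2% of all genes tested), and 1 was higher and 4 lower in U. ornatus than in U. graciosus (23.8%, against 32.2%). ACADL, a mitochondrial dehydrogenase of long acyl chains, was the lower one in hybrids (-1.07 ± 0.15, SE, edgeR adjusted p = 7.62e-05) and the higher one in U. ornatus against U. graciosus (1.17 ± 0.15, edgeR adjusted p = 4.41e-05). HADHA (0.79 ± 0.21, edgeR adjusted p = 0.00854) and HADHB (0.83 ± 0.23, edgeR adjusted p = 0.0116), the subunits of the mitochondrial trifunctional protein, were higher in hybrids than in U. ornatus. At 40 °C 1 of the 21 was called (4.76%, against 0.996% of all genes), SLC25A20, the carrier of acylcarnitines into mitochondria, which was lower by a log2 difference of -0.89 ± 0.20 averaged over lineages (edgeR adjusted p = 0.0493). That call held in 2 of 18 fits that left out 1 animal, with adjusted p-values up to 0.101.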
